A study of Mus musculus with 6 samples.

Results

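A set of 8 genes for C-type lectin receptors known from macrophages, monocytes, neutrophils and dendritic cells were followed in mouse hepatic stellate cells: Clec7a, Clec12a, Clec1b, Clec4n, Clec4d, Clec4e, Clec5a and Clec10a. They were taken by gene symbol, 8 of the 22180 genes that a single-gene probe set of the array named, and each had 1 such probe set. They were picked with earlier results of these arrays in view, among them that Clec7a, Clec12a and Clec1b were much lower after PRI-724 than after vehicle. Their PRI-724 minus vehicle differences are therefore given as a description, without a test.

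The study put RNA of primary hepatic stellate cells, liver pericytes that store vitamin A, on 6 Affymetrix arrays, 1 for each of 3 states and 2 ages. PRI-724 cells and vehicle cells had been culture-activated on uncoated plastic for more than 20 days, and the labels' protocols give C-82 at 10 µM for the treated ones (PRI-724 is converted to C-82, an inhibitor that keeps beta-catenin and the coactivator CBP apart) and dimethyl sulfoxide as its solvent. Quiescent cells had been plated for 12 h and not treated. Old mice were 6 to 9 months and young mice 8 to 11 weeks of age, and each sample pooled the cells of 5 mice. Strain, sex, length of exposure to C-82 and purity are not stated in the labels used here. No group had a second array, so the only repeat of a state is the other age (n = 2 pairs), and the p-values measure only how far these arrays disagree.

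C-type lectin receptors are surface proteins with a carbohydrate-recognition type fold by which myeloid cells sense fungal, mycobacterial and dead-cell material. Some carry a tyrosine motif in their own tail, others borrow one from the adaptor chains Fcer1g or Tyrobp, and both routes lead through the kinase Syk to the adaptor Card9, while inhibitory members recruit the phosphatases Ptpn6 and Ptpn11. In liver, resident macrophages (Kupffer cells) and sinusoidal endothelium carry several C-type lectins. In a bulk sample, fewer cells of a type and less RNA per cell cannot be told apart.

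Values are log2 signals, on which 1 unit is a 2-fold difference. Genes with a mean under 4.70 over the 6 arrays, the lowest 30%, were left out of all tests, which left 15526 genes. Among the members 6 passed this limit, and Clec5a (mean 4.44) and Clec10a (mean 3.95) did not. The young PRI-724 array had the narrowest spread of signal, with an interquartile range of 1.71 over the tested genes, against 2.11 to 2.43 on the other 5 arrays.

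Apart from Clec10a, the genes lie on chromosome 6 in the RefSeq table of GRCm38.p6, where Clec4n, Clec4d and Clec4e are direct neighbours and Clec12a, Clec1b and Clec7a lie close together in a second group. Clec10a is on chromosome 11, beside its paralog Mgl2. The 250 bases before a listed transcript start of 4 of them are shown (RefSeq, GRCm38.p6, 5′ to 3′). For Clec7a the first of 2 listed promoters was used, and its window reaches slightly into the gene. The Clec12a window lies inside the gene, which begins at 129349783. These 4 genes were chosen because Clec7a, Clec12a and Clec4d were below vehicle after PRI-724. Clec4e, the direct neighbour of Clec4d, was level with vehicle, at signals where little further fall could have been measured. Capitals mark matches, on either strand, to 4 motifs: GAGGAA, the core bound by the myeloid ETS factor PU.1, TTGCNNAA of C/EBP factors, TGANTCA of AP-1, and CTTTGNT of the TCF/LEF partners of beta-catenin.
Clec7a, chr6:129472780-129473029, minus strand: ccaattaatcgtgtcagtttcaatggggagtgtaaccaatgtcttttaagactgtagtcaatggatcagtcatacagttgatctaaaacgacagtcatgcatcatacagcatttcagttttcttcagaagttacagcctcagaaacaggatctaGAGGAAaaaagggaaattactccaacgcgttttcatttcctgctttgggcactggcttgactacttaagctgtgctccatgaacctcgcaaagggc
Clec12a, chr6:129349994-129350243, plus strand: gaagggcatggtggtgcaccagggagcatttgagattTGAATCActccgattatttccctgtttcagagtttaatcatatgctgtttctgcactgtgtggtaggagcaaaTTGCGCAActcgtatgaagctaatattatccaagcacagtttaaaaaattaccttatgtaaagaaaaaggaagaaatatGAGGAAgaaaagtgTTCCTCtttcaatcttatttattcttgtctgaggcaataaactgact
Clec4d, chr6:123261857-123262106, plus strand: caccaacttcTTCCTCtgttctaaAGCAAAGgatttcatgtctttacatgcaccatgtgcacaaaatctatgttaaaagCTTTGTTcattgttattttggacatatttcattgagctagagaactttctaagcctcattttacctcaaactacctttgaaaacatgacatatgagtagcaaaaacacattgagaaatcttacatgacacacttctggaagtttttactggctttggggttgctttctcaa
Clec4e, chr6:123289872-123290121, minus strand: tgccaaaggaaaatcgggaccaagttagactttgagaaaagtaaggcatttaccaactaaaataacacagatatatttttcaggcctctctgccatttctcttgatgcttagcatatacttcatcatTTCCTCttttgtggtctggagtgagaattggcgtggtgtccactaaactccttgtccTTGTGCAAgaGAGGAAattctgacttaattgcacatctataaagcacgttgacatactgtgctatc
The GAGGAA core was found in 5 of the 6 members with a promoter in the table (all but Clec4n and Clec10a), the exception being Clec1b, and in 23.3% of all 32851 promoter windows of that length. In Clec4e it occurs on both sides of a C/EBP match that ends 59 bases before the start, and in Clec12a as a pair between 61 and 42 bases before it. The C/EBP letters were in 2 of the 6 (9.56% of all windows), those of AP-1 in 1 (6.75%), Clec12a, and those of TCF/LEF in 1 (16.0%), Clec4d, which holds them in 2 places. In Clec12a the C/EBP match reads the same on both strands, and the AP-1 match meets its pattern on both, with a different middle base. The motif that Clec7a, Clec12a and Clec4d share, GAGGAA, is also in Clec4e, and none of the 4 motifs is in the window of Clec1b. Clec4e was near the signal limit in both cultured states, so it cannot stand for a gene that did not respond. A link between motifs and signals was not tested. These matches are letters in a window, not binding sites.

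After PRI-724, 5 of the 8 lectin genes were at least 2-fold below vehicle in both ages, Clec7a, Clec12a, Clec1b, Clec4n and Clec4d, whereas Clec4e was level and Clec5a and Clec10a were dim on every array. All 5 passed the signal limit, and of all 15526 tested genes 2.36% were at least 2-fold lower in both ages. The contrast is the one the genes were picked from, so nothing is read from that gap.

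On both PRI-724 arrays these 5 genes, and the untested Clec5a, were below the other 4 arrays, as were 9.57% of all tested genes.

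Clec7a encodes dectin-1, the beta-glucan receptor that carries its own tyrosine motif. Its log2 signal was 7.40 in old and 5.82 in young PRI-724 cells, 10.40 and 10.99 in old and young vehicle cells, and 11.18 and 9.21 in old and young quiescent cells. Both PRI-724 arrays were below the other 4, and vehicle and quiescent arrays overlapped. The PRI-724 minus vehicle difference was -3.00 in the old pair, 8.01-fold lower, and -5.17 in the young pair, 36.0-fold lower.

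Clec1b encodes CLEC-2, the receptor for podoplanin on platelets, which Kupffer cells of the mouse also express. It had log2 signals of 4.77 and 4.42 in old and young PRI-724 cells, 7.98 and 8.90 in old and young vehicle cells, and 9.30 and 10.17 in old and young quiescent cells. The 3 states did not overlap, with PRI-724 lowest and quiescent highest. PRI-724 minus vehicle was -3.22 in the old and -4.48 in the young pair, 9.29-fold and 22.4-fold lower, of which the young value rests on a PRI-724 signal under the limit. A second probe set that names both Clec9a and Clec1b, and so was not used, read 3.66 and 4.39 in old and young PRI-724 cells, 4.60 and 5.36 in vehicle cells, and 5.53 and 7.22 in quiescent cells, which is the same order of states within each age.

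Clec12a is the inhibitory member, a receptor for uric acid crystals that recruits phosphatases. It stood at 4.02 and 3.77 in old and young PRI-724 cells, both under the mean-signal limit, at 7.45 and 8.12 in old and young vehicle cells, and at 6.99 and 5.81 in old and young quiescent cells. The 3 states did not overlap here either, but vehicle was the highest. PRI-724 minus vehicle was -3.43 in the old pair (10.8-fold lower) and -4.35 in the young pair (20.4-fold lower), folds that are uncertain because both PRI-724 signals are under the limit.

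Clec4n (dectin-2, a mannan receptor) and Clec4d (MCL, which pairs with the product of Clec4e) both signal through Fcer1g. Clec4n had 5.90 and 4.97 in old and young PRI-724 cells, 8.85 and 9.23 in old and young vehicle cells, and 10.18 and 6.58 in old and young quiescent cells. Clec4d had 6.00 and 5.79 in old and young PRI-724 cells, 8.18 and 8.20 in old and young vehicle cells, and 8.88 and 7.19 in old and young quiescent cells. For both genes the PRI-724 arrays lay below the other 4, and the old and young quiescent arrays lay on either side of the vehicle arrays. PRI-724 minus vehicle was -2.95 and -4.26 for Clec4n and -2.18 and -2.41 for Clec4d in the old and the young pair, so Clec4d had the smallest difference of the 5 genes in each age.

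Clec4e encodes Mincle, the inducible receptor for mycobacterial cord factor and for the nuclear protein Sap130 of dying cells. It had 4.41 and 4.76 in old and young PRI-724 cells, 4.22 and 4.72 in old and young vehicle cells, and 6.72 and 7.87 in old and young quiescent cells. The cultured states overlapped near the signal limit, and both quiescent arrays were above them. PRI-724 minus vehicle was 0.18 in the old and 0.04 in the young pair, at levels where little further fall could have been measured.

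The remaining 2 genes were dim. Clec5a (MDL-1, which signals through Tyrobp) ranged from 3.95 in old PRI-724 cells to 4.77 in old vehicle cells, and Clec10a (MGL1, which binds galactose and N-acetylgalactosamine) from 3.40 in young vehicle cells to 4.43 in old quiescent cells. PRI-724 minus vehicle was -0.82 and -0.48 for Clec5a and 0.47 and 0.69 for Clec10a in the old and the young pair. These values carry little information on either gene.

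**Figure D1:**
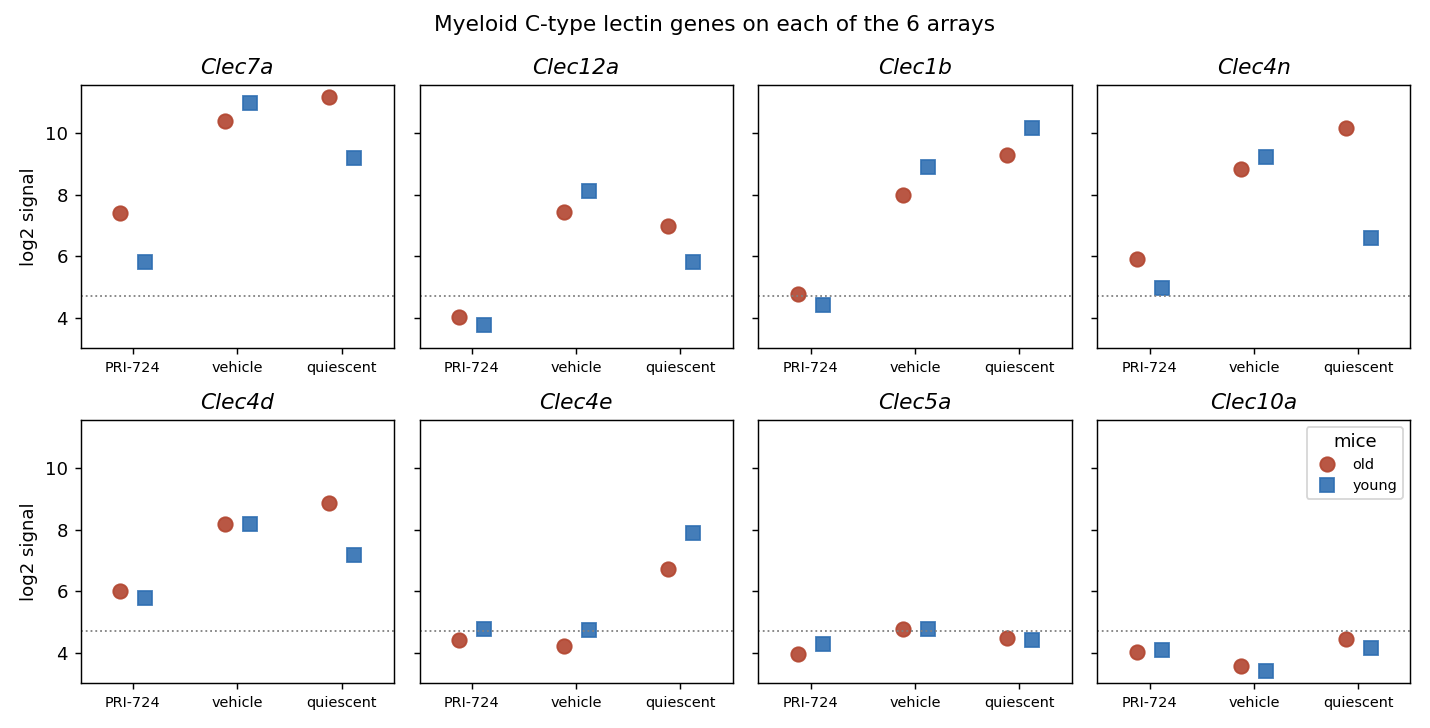
Log2 signal (vertical axis) of each of the 8 lectin genes in PRI-724, vehicle and quiescent cells, 1 point for the array of each age (circles old, squares young), with a dotted line at the mean-signal limit of 4.70. Clec7a, Clec12a, Clec1b, Clec4n and Clec4d are lowest on both PRI-724 arrays, Clec4e is high only on the quiescent arrays, and Clec5a and Clec10a stay near or under the line.

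PRI-724-treated cells were next set against quiescent cells, which asks whether the lectin genes after treatment stood below the level of freshly plated cells. Of the 6 tested members 5 fell (limma, Benjamini-Hochberg adjusted p of 0.05), against 2.43% of all genes tested that fell. This comparison shares its PRI-724 arrays with the one the genes were picked from, so the count is not independent of that choice. The 2 states also differ in time in culture, more than 20 days against 12 h, which cannot be told apart from treatment here. Clec4e was also lower with vehicle against quiescent, at -2.82 ± 0.28. Clec1b fell by 5.14 ± 0.35 log2 units (SE, n = 2 pairs), with differences of -4.53 in the old and -5.75 in the young pair (limma, adjusted p = 0.000615). Clec7a fell by 3.59 ± 0.50 (limma, adjusted p = 0.00437), and the estimates were -2.71 ± 0.28 for Clec4e (0.000964), -2.51 ± 0.38 for Clec12a (0.00708) and -2.14 ± 0.40 for Clec4d (0.0185). Clec4n stood at -2.94 ± 0.70 with an adjusted p of 0.0511, and its pairs were the least alike, at -4.28 in old and -1.61 in young cells. The untested Clec5a and Clec10a were between -0.52 and -0.06 in the 2 pairs. At an unadjusted p under 0.05, 6 of 6 tested members were lower, beside 16.3% of all genes that differed in either direction. The calls rested on having both PRI-724 arrays: without the young one 0 of 6 members were called (5 at an unadjusted p under 0.05, and 0 of all genes called), and without the old one only Clec1b was (limma, adjusted p = 0.0400). Clec4n passed as well when the young quiescent, young vehicle or old vehicle array was left out. The adjusted p of Clec4d was 0.115 when the old quiescent array was left out, 0.0958 when age was dropped from the fit, and 0.0651 with cyclic loess.

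Vehicle-treated activated cells were also set against quiescent cells. These differ in time in culture, in solvent and in hepatocyte and myofibroblast markers (median estimates -1.70 and 2.15), which cannot be told apart here. Macrophage markers had medians of -0.39 in the old and 0.42 in the young pair. The vehicle arrays are those the genes were picked with. Clec4e fell by 2.82 ± 0.28 log2 units, 7.08-fold, with -2.50 in the old and -3.15 in the young pair (limma, adjusted p = 0.00295). It was the 1 member called of 6 tested, in a comparison in which 5.87% of all genes were called and 1.26% fell. Clec1b stood at -1.29 ± 0.35, nearly the same in the old (-1.32) and young (-1.27) pairs (adjusted p = 0.0631), and Clec12a at 1.38 ± 0.38, from 0.46 in old and 2.31 in young cells (adjusted p = 0.0662). Clec7a, Clec4n and Clec4d, at 0.50 ± 0.50, 0.66 ± 0.70 and 0.15 ± 0.40, were lower than quiescent in old cells and higher than quiescent in young cells.

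Calls in this comparison moved with single arrays, in fits that have 1 array in a state and take its spread from the other states. Without the old quiescent array Clec12a, Clec1b and Clec4n were called beside Clec4e, and without the old vehicle array Clec7a, Clec12a and Clec4n were. Clec1b was called without either PRI-724 array (adjusted p = 0.0486 without the young and 0.0457 without the old one) and after cyclic loess (0.0408), which also turned the sign of Clec4d, to -0.08. Clec4e was called in each of these fits, with adjusted p-values of at most 0.0394, and was not tested with the lowest 50% of genes left out, where its mean fell under the limit.

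**Figure D2:**
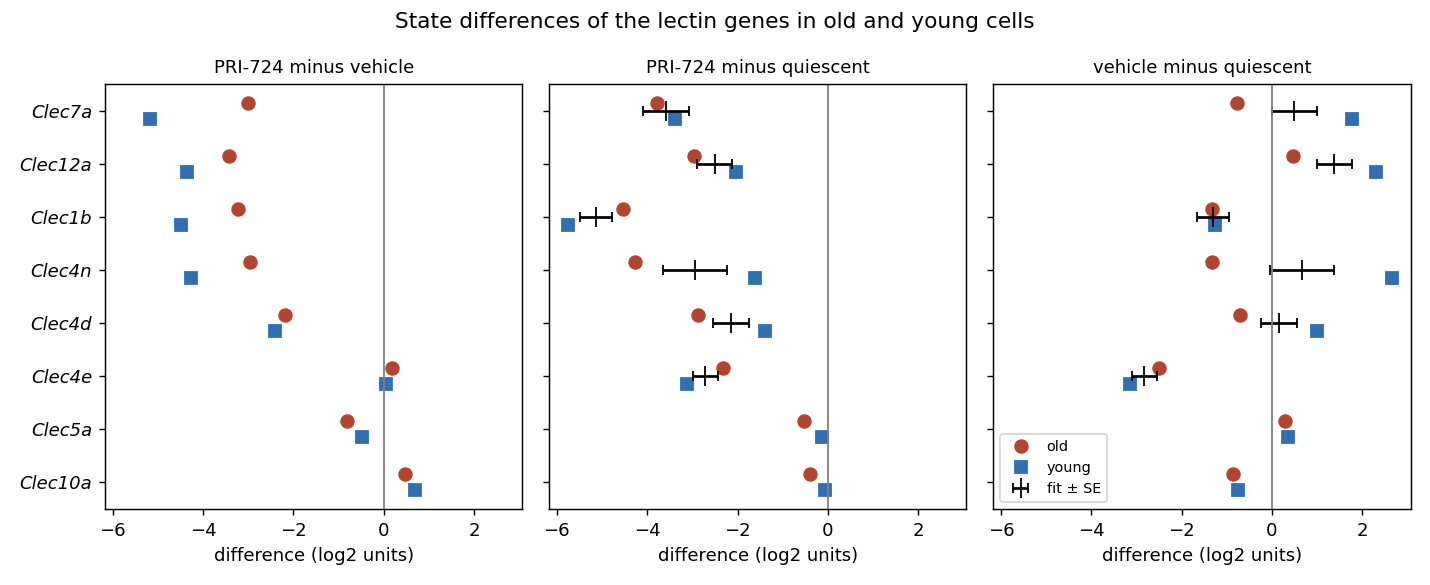
Differences between states in log2 units (horizontal axis) for the 8 genes, as circles for the old pair and squares for the young pair; black marks with bars are the limma estimate ± SE for tested genes in the comparisons with quiescent cells. Clec7a, Clec12a, Clec1b, Clec4n and Clec4d lie left of -2 in both ages for PRI-724 minus vehicle, Clec4e lies near 0 there and left of -2 in both comparisons with quiescent cells, and Clec7a, Clec4n and Clec4d change side between ages for vehicle minus quiescent.

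Old against young cells is the comparison that does not use the difference the genes were picked by. None of the 6 tested members was called (limma, 0 of 6 at an adjusted p of 0.05 and 3 at an unadjusted p under 0.05), while 0.515% of all genes were called and 10.4% had an unadjusted p under 0.05. Over the 3 states Clec4n stood at 1.38 ± 0.57, Clec7a at 0.99 ± 0.41 and Clec4e at -0.67 ± 0.22 (old minus young, SE, n = 3 pairs, limma, adjusted p = 0.438, 0.442 and 0.317). Clec4e was lower in old cells in 3 of 3 states, as were 11.3% of all genes, whereas Clec4n and Clec7a were higher in old PRI-724 and quiescent cells and lower in old vehicle cells. The spread between states was wide: for Clec4n the old minus young difference was 0.93 in PRI-724, -0.38 in vehicle and 3.60 in quiescent cells, and for Clec7a 1.58, -0.59 and 1.97. Clec4d, at 0.21, -0.02 and 1.69, and Clec12a, at 0.25, -0.67 and 1.18, also had their largest value in quiescent cells, while Clec1b was lower in old quiescent cells, at -0.87. With either the young or the old vehicle array left out, the estimates were 1.77 for Clec7a and 2.26 for Clec4n.

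**Figure D3:**
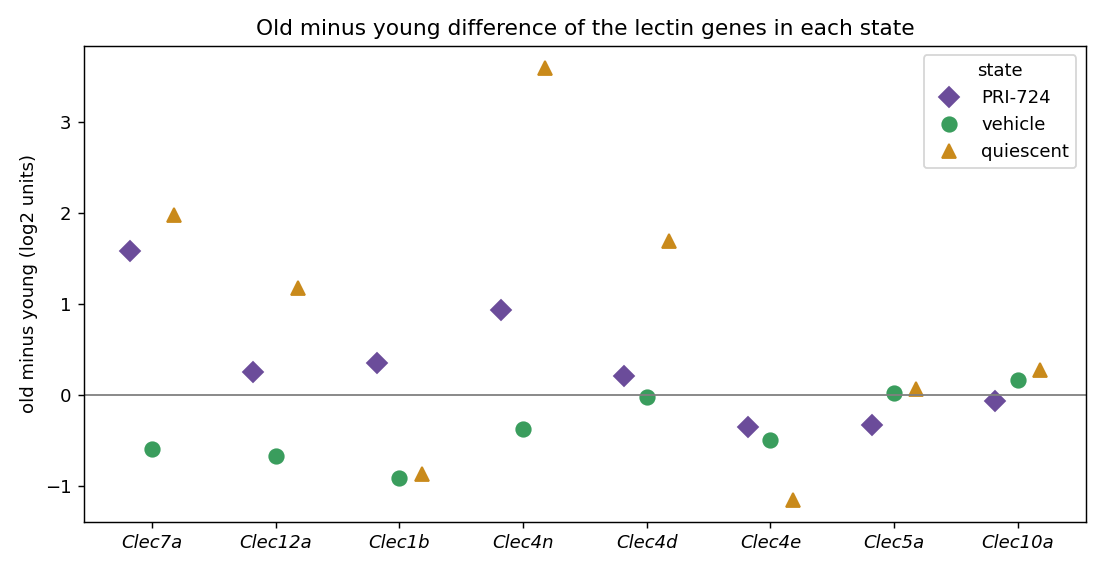
Old minus young difference in log2 units (vertical axis) for each gene in PRI-724 cells (diamonds), vehicle cells (circles) and quiescent cells (triangles). The quiescent difference reaches 3.60 for Clec4n and is the widest of the 3 for Clec7a, Clec12a, Clec4n, Clec4d, Clec4e and Clec10a but not for Clec1b and Clec5a, and the differences of vehicle cells lie between -0.91 and 0.16.

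Some macrophage genes were also lower on the young than on the old quiescent array. The differences, old minus young, were 2.47 for Lyz2 (lysozyme), 1.62 for Itgam (an integrin chain of myeloid cells) and 1.88 for Csf1r (the receptor for macrophage growth factor), but -1.65 for Timd4, a marker of resident Kupffer cells, and the median of 15 tested macrophage markers was 0.64. Lyz2, Itgam and Timd4 were named here after their values were seen. In the same pair the medians were 3.05 over hepatocyte markers and -0.94 over those of sinusoidal endothelium. The part of these differences in the lectin values was not tested.

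The adaptor chains that the lectins signal through fell after PRI-724, and Card9, further down, did not pass the test. Of 17 tested genes of lectin signalling 5 fell against vehicle and 0 rose (limma, adjusted p of 0.05; 11 lower and 0 higher at an unadjusted p under 0.05), with a median of -1.07, while 1.93% of all tested genes fell and 0.271% rose, and their median was -0.05. Fcer1g, the adaptor chain of Clec4n, Clec4d and Clec4e, had 8.03 and 7.03 in old and young PRI-724 cells, 10.67 and 10.31 in vehicle cells and 10.64 and 10.60 in quiescent cells, and fell by 2.96 ± 0.28 against vehicle (adjusted p = 0.00138). Tyrobp, the adaptor of Clec5a, fell by 2.42 ± 0.30 (0.00391). Lcp2, a scaffold downstream of Syk, fell by 2.10 ± 0.27 (0.00459). Of the phosphatases that inhibitory receptors recruit, Ptpn6 fell by 1.78 ± 0.30 (0.0172), whereas Ptpn11 stood at -0.05 ± 0.27 (0.954), with 0.23 in the old and -0.33 in the young pair. The lipid phosphatase Inpp5d fell by 2.08 ± 0.37 (0.0209). Syk stood at -1.11 ± 0.29 (0.0918), and Card9 at -0.36 ± 0.24 (0.510).

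Against quiescent cells 7 of the 17 fell after PRI-724, those 5 with Syk (-1.73 ± 0.29) and the guanine exchange factor Vav1 (-1.88 ± 0.26), and none of the 17 was called for vehicle minus quiescent (limma, 1 higher and 2 lower at an unadjusted p under 0.05). Without the young PRI-724 array no gene of any list was called in either comparison with PRI-724. In the old pair alone 8 of the 17 signalling genes were at least 2-fold below vehicle, against 6 in both pairs. The ligand of Clec1b, podoplanin (Pdpn), stood at 1.12 ± 0.38 for PRI-724 minus vehicle (adjusted p = 0.199) and rose by 1.70 ± 0.38 against quiescent cells (0.0410), where 1.28% of all genes rose, and Sap130, a ligand of Clec4e, stood at -0.04 ± 0.29 against vehicle.

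Of 45 other C-type lectin and collectin genes on the array 26 were tested, and 5 of these fell after PRI-724 against vehicle, with a median of -0.37 (limma; 0 rose, 0 also higher at an unadjusted p under 0.05). They were the mannose receptor Mrc1 of macrophages and sinusoidal endothelium, (-3.36 ± 0.30), Cd93, an endothelial and myeloid protein (-2.80 ± 0.42), Clec4g, a marker of sinusoidal endothelium (-2.75 ± 0.46), the endothelial Clec14a (-1.88 ± 0.35) and the scavenger receptor Colec12 (-1.80 ± 0.31). Clec4f, the Kupffer cell lectin, was 6.04 and 6.80 in old and young PRI-724 cells, 8.32 and 7.25 in vehicle cells and 9.42 and 8.82 in quiescent cells, at -1.36 ± 0.41 against vehicle (adjusted p = 0.139) and -2.70 ± 0.41 against quiescent cells (0.00627). With cyclic loess 2 of the 5 were called, Mrc1 and Colec12, while calls over all genes went from 341 to 103. Of all tested genes 1.93% fell in the main fit. Between ages, with 0 of the members called, 2 of these 26 genes were: Clec2d, a ligand of natural killer cell receptors, at -1.42 ± 0.24 and Thbd, the thrombin receptor thrombomodulin, at 1.21 ± 0.22 (old minus young, limma, adjusted p = 0.0342 and 0.0499).

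Markers of macrophages and of sinusoidal endothelium moved with the lectin genes, and those of hepatocytes did not. Hepatocyte markers had medians of -0.05 in the old and 1.06 in the young pair for PRI-724 minus vehicle, with 0 of 10 called (limma). Of 15 tested macrophage markers 11 fell after PRI-724 against vehicle (limma), where 1.93% of all tested genes fell. The summed linear signal of the 15 was 1441 to 2444 on the PRI-724 arrays, 9496 to 10166 on the vehicle arrays and 6375 to 13567 on the quiescent arrays. The list medians were -2.13 in the old and -2.64 in the young pair, beside -2.56 and -3.33 over the 8 lectin genes. The 2 kinds of median are not alike, since the lectin ones include the untested Clec5a and Clec10a and the list ones cover tested genes only. The lectin values also come from the contrast the genes were picked from. The complement-binding Vsig4 of Kupffer cells fell by 5.08 ± 0.33, and Adgre1 (F4/80) and Csf1r stood at -2.47 ± 0.31 and -2.78 ± 0.42, both called, and Cd163 was the 1 macrophage marker under the mean-signal limit. All 12 sinusoidal endothelial markers fell too, among them the hyaluronan receptor Lyve1 (-3.30 ± 0.71) and the scavenger receptor Stab1 (-3.56 ± 0.42), with summed signals of 1042 to 2772, 11445 to 12905 and 9501 to 20050 on the PRI-724, vehicle and quiescent arrays. After cyclic loess 6 macrophage and 4 endothelial markers were called, while calls over all genes went from 341 to 103. At an unadjusted p under 0.05, 14 macrophage and 12 endothelial markers were lower in that fit (limma). Their part in the lectin result was not tested.

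Of neutrophil and platelet markers 0 of 6 and 0 of 5 tested were called for PRI-724 minus vehicle (limma, 0 and 1 at an unadjusted p under 0.05), many at signals where a fall could hardly be seen. Pf4, a platelet chemokine, was lower in both ages (-0.37 old, -1.27 young, limma, adjusted p = 0.283), as was Mmp8, a collagenase of neutrophils (-0.64 old, -0.83 young, adjusted p = 0.341). Of 12 neutrophil markers 6, among them S100a8 and Ly6g, were under the mean-signal limit, and the summed signal of the other 6 was 194 to 265 on the PRI-724, 230 to 233 on the vehicle and 254 to 274 on the quiescent arrays. Of the 7 platelet and megakaryocyte markers on the array Ppbp and Tubb1 were under the limit, and the other 5 had medians of -0.07 and 0.22 for PRI-724 minus vehicle in the old and young pair. Of 9 dendritic cell markers Itgax, which macrophages also express, fell, by 2.49 ± 0.43 (limma, adjusted p = 0.0205), and the list's medians were 0.10 and 0.43. Stellate cell markers were uneven: Gfap and Hand1 read between 5.16 and 6.24 on all arrays, and Reln between 9.24 and 10.06. Lrat, which makes retinyl esters, had 6.92 and 5.57 in old and young PRI-724 cells, 8.15 and 7.71 in vehicle cells and 6.87 and 6.32 in quiescent cells. It fell by 1.69 ± 0.31 after PRI-724 against vehicle (limma, adjusted p = 0.0242), as did Tcf21, a transcription factor of quiescent stellate cells (-1.84 ± 0.33, 0.0221). Only these 2 of 11 tested genes of the quiescent stellate list fell, and Gfap, Hand1, Ngfr and Colec11 had estimates above 0. With vehicle against quiescent 5 of the 11 rose and 1 fell, Lrat (1.34 ± 0.31) and Tcf21 (1.66 ± 0.33) being among those that rose. Of 10 tested genes of the myofibroblast list only Myl9, a myosin light chain, fell after PRI-724 against vehicle (-2.41 ± 0.36, 0.00969). Of all tested genes 1.93% fell. Acta2, the smooth muscle actin of activated stellate cells, rose by 3.66 ± 0.41 with vehicle against quiescent and stood at -1.82 ± 0.41 for PRI-724 minus vehicle (limma, adjusted p = 0.00408 and 0.0573).

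**Figure D4:**
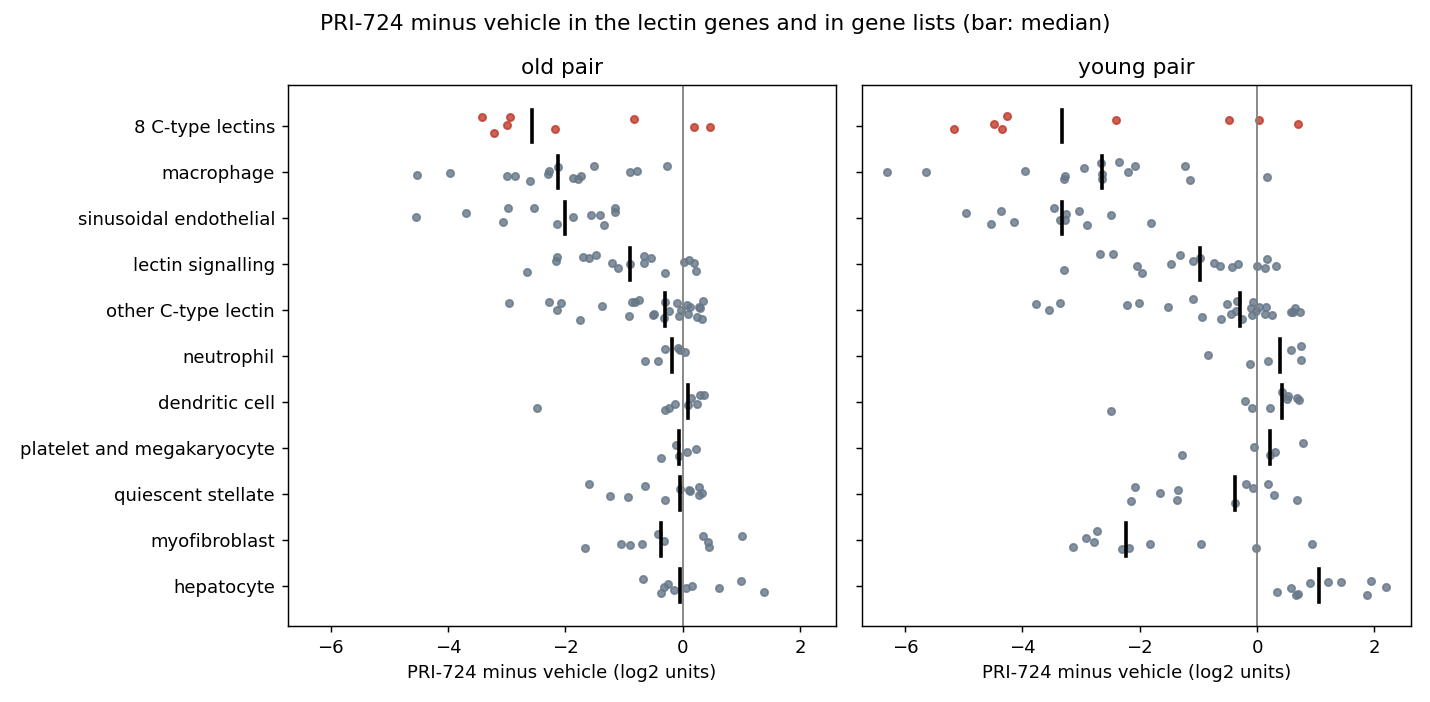
PRI-724 minus vehicle in log2 units (horizontal axis) for the 8 lectin genes (red) and for tested genes of 10 lists (grey), old pair left and young pair right; each point is 1 gene and each black bar a median. The 8 lectin genes have medians of -2.56 and -3.33, macrophage markers -2.13 and -2.64, and neutrophil markers -0.19 and 0.38.

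Over the 6 arrays the members fell into sets by their pattern, given here as Pearson correlations that rest on the same 6 libraries. Clec7a, Clec12a and Clec1b were picked with their low values after PRI-724 in view. Correlations among the members, and with other genes low on the PRI-724 arrays, therefore partly restate that choice. Both PRI-724 arrays were below the other 4 for 9.57% of all tested genes. The mean profile used below includes the dim Clec5a and Clec10a. Clec7a, Clec12a, Clec4n and Clec4d were alike, with r from 0.91 to 0.98, the highest between the neighbours Clec4n and Clec4d. Clec1b correlated with them at 0.69 to 0.84. Clec4e, next to Clec4d on the chromosome, had r of 0.25 with it and 0.67 with Clec1b. The genes nearest to the mean profile of the 8 were C1qb (a complement chain made by macrophages), Lpxn, Cd5l (a secreted macrophage protein), Pla2g7, Mpeg1 (perforin-2 of phagocytes), U2surp, Ly9 and Siglec1 (the sialoadhesin of macrophages), with r of 0.99 each. Nearest to single members were Dock2 and Wfdc17 for Clec7a, Cd300ld and Fcgr4 for Clec12a, Dusp1 and Il1a for Clec1b, Slc16a7 and Cd9 for Clec4n, Treml4 and Prkcb for Clec4d, and Gadd45b and Colec11 for Clec4e, all at r of 0.99 or above.

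Genes that these receptors can induce fell mainly against quiescent cells. Of 20 tested inflammatory genes 10 fell and 0 rose for PRI-724 minus quiescent (limma, 13 lower and 1 higher at an unadjusted p under 0.05), with a median of -1.65, where 2.43% of all genes fell. Of the same 20 genes 2 fell after PRI-724 against vehicle, the chemokine gene Ccl3 (-3.64 ± 0.38) and the interleukin-1 antagonist Il1rn (-1.95 ± 0.31), where 1.93% of all genes fell, and 8 fell with vehicle against quiescent, where 1.26% did. Cxcl1 and Cxcl2, chemokines for neutrophils, fell with vehicle against quiescent, at -3.52 ± 0.43 and -4.07 ± 0.47, and stood at 0.79 ± 0.43 and 0.84 ± 0.47 for PRI-724 minus vehicle (limma, adjusted p = 0.420 and 0.435). In the old and the young pair that difference was 0.36 and 1.23 for Cxcl1, and -0.36 and 2.03 for Cxcl2. Both cultured states were below quiescent in each age, as for Clec4e. Clec4e, unlike these 2 genes, was level with vehicle in both pairs (0.18 and 0.04).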

How the data were processed

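Transcript levels of 6 samples were measured on 1 Affymetrix array each. The deposited values are log2 signals per probe set, made with Affymetrix Expression Console and RMA, per the submitters' processing notes. No version or option is stated in those notes or in the headers. The platform table gave 1 gene for 23521 of 41345 probe sets, several for 1814 and none for 16010, and the last 2 kinds were not tested. A gene was represented by its probe set with the highest mean. The lowest 30% of 22180 genes by mean signal were left out, leaving 15526.

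Differences were fitted with limma 3.58.1 in R 4.3.3 over all 6 arrays, with age and state in the model and moderated variances with an intensity trend (2 residual and 7.76 prior degrees of freedom), and p-values were adjusted by Benjamini-Hochberg over all tested genes at 0.05. The state comparisons share arrays with each other. The SE is that of the moderated fit, and the number of arrays limits the precision. The script was tested on simulated data. Members, lists, motifs and tests were chosen with earlier results of these data known. From each list the 4 genes with the largest mean absolute difference over the state comparisons were to be named, with 11 set genes such as Syk and Lrat; other names spell out small counts and were chosen after their values were seen. Likeness was Pearson's r over 6 arrays. Promoters came from RefSeq, GRCm38.p6, and 6 of 8 members matched. Alternatives were other filters, the mean of all probe sets, no trend, cyclic loess, 1 factor only and each array left out. Figures used Python 3.11.15, pandas 2.3.3 and matplotlib 3.10.9.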

Additional observations from a re-analysis of the deposited data

Results flagged for a closer look

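The response of 3 genes to culture with vehicle had opposite signs in the 2 ages, each resting on 1 array per group, and the difference between ages was not tested. Vehicle minus quiescent was -0.78 in old and 1.78 in young cells for Clec7a, -1.32 and 2.65 for Clec4n, and -0.70 and 1.01 for Clec4d. The old response minus the young response was -2.57 for Clec7a, -3.97 for Clec4n and -1.71 for Clec4d. Of all tested genes 25.9% had opposite signs in this comparison. The vehicle arrays of the 2 ages were within 0.59 of each other for these 3 genes, and the quiescent arrays differed by 1.69 to 3.60.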

How the results depend on the processing

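The count of lectin genes at least 2-fold lower after PRI-724 than vehicle was 5, and 5 after cyclic loess. Most other alternatives could not lower it, since each member has 1 probe set, the quiescent arrays do not enter it and a left-out PRI-724 or vehicle array leaves 1 pair to meet the limit. For vehicle minus quiescent the count of called members was 1, but 0 with the lowest 50% of genes left out, where Clec4e was not tested, 4 with either the old quiescent or the old vehicle array left out, and 2 after cyclic loess, and it ranged from 1 to 4 with each array left out. For PRI-724 minus quiescent it was 5, 4 to 5 under the alternatives that kept all arrays, and 0 to 6 with each array left out. For old minus young it was 0, and 0 to 2 with each array left out. Genes called over the whole table also moved with the setting: for vehicle minus quiescent 911 were called, 482 with cyclic loess and 114 if age was dropped, for PRI-724 minus quiescent 577, and 217 if age was dropped, and for old minus young 80, 7 after cyclic loess and 0 if state was dropped. Each fit with an array left out has 1 array in that state, whose spread is taken from the other states, so its p-values show how far calls hang on single arrays and not how firm they are. Repeating the list counts with that array left out or with cyclic loess was chosen after seeing the data. The labels give no replicate numbers, so the pairing was by age: with age in the model each state difference is taken within an age, and with age dropped 1 member was called for vehicle minus quiescent and 4 for PRI-724 minus quiescent. Clec4e in the cultured states, and Clec5a and Clec10a on every array, sit near or under the mean-signal limit, where little further fall could have been measured. Causes of these changes were not tested.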
